A study of Mus musculus with 6 samples.

Results

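Chemokines are small secreted proteins that guide leukocytes, and 10 of their genes with known roles in the gut were followed through the mouse ileum: Ccl2, Ccl3, Ccl4, Ccl5, Ccl20, Ccl25, Ccl28, Cxcl9, Cxcl10 and Cxcl13. They were found by gene symbol among 19695 genes on the array, and 12 probes carried them, with a pair of probes each for Ccl25 and Cxcl9 and a single probe for each of the others. C7, an older alias of Cxcl10, is the current symbol of complement C7, and its probes were not used. The question put by the design was how ileal transcripts differ with the microbiota before and after weaning. All mice were C57BL/6J. Germ-free mice lived in isolators, conventional mice were kept under specific pathogen free (SPF) conditions, and a humanized gnotobiotic mouse carried a known microbial community, whose content the sources used here do not give. Of the 6 samples, 2 were germ-free preweaned (called 1 and 2) and 1 was germ-free postweaned. SPF mice gave 1 preweaned and 1 postweaned sample, and the humanized mouse gave 1 preweaned sample. An age of 3 weeks is given for the gnotobiotic mouse and the germ-free mouse set beside it, and the labels do not say whether a sample was 1 mouse or a pool.

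Ccl25 and Ccl28 are made by resting epithelium, where Ccl25 draws lymphocytes bearing Ccr9 to the small intestine and Ccl28 draws antibody-secreting cells bearing Ccr10. Ccl3, Ccl4 and Ccl5 are products of activated lymphocytes and macrophages. Cxcl9 and Cxcl10 are induced by interferon and attract T cells through Cxcr3, Ccl2 attracts monocytes through Ccr2, Ccl20 is released by epithelium over lymphoid follicles and acts on Ccr6, and Cxcl13 organizes B cell follicles through Cxcr5.

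The promoters of Cxcl9, Cxcl10 and Ccl20 are shown, a choice made after their values were seen. These genes were brightest in the humanized sample. Highest there too, but not shown, were Ccl2, which had no entry, Cxcl13, and Ccl25 by probe mMC023427. The 2 listed promoters of Ccl25 held 0 matches to the motifs below. Each line gives the 250 bases before the gene start from RefSeq, assembly GRCm38.p6, read on the gene's strand. Capitals mark matches to the NF-kappaB-like motif (GGG, 5 bases of any kind, CC) or to the interferon response core (GAAA, 2 bases of any kind, GAAA), each searched on both strands, and overlapping matches are merged. Cxcl9 lies at chr5:92328080-92328329 on the minus strand, Cxcl10 at chr5:92348890-92349139 on the minus strand and Ccl20 at chr1:83116516-83116765 on the plus strand.
Cxcl9: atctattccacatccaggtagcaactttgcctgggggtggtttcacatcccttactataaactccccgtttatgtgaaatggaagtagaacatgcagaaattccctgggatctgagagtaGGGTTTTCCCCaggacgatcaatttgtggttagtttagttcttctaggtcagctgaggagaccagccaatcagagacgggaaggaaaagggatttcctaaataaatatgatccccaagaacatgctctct
Cxcl10: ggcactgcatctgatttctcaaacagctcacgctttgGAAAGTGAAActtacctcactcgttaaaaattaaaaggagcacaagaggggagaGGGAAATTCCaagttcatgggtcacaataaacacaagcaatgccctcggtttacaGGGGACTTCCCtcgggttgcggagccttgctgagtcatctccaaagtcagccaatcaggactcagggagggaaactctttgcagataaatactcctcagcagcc
Ccl20: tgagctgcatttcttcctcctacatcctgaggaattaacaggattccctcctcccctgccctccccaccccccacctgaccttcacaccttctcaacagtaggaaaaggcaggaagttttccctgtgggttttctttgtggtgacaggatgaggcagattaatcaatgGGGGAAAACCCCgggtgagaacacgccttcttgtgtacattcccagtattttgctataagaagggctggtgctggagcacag
Cxcl10 held the interferon response core at bases -213 to -204 from its start and NF-kappaB-like matches at -159 to -150 and at -104 to -94. Cxcl9 held NF-kappaB-like matches between -130 and -120, and Ccl20 between -82 and -71. Of the 7 chemokine genes with a promoter in the table, 5 held the NF-kappaB-like motif (Ccl20, Ccl28, Cxcl9, Cxcl10 and Cxcl13) and 1 held the interferon response core, while 45.4% and 3.04% of 27025 promoters of the same length did. The interferon gamma motif (TTC, 3 bases of any kind, GAA) was in 0 of the 7 and in 7.18% of all promoters. A match describes the letters only. Ccl2, Ccl4 and Ccl5 had no entry.

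Levels are log2 of quantile-normalized intensity plus 50, so that a level near 5.64 is no signal and differences of dim genes are understated. A gene was above background in a sample when most of its arrays gave the authors' detection p-value as under 0.05. Each sample was read on 3 arrays and germ-free preweaned 1 on 6, and an array detected 29.8% to 50.3% of its probes. Differences were tested with limma over 12196 genes above background in at least 1 sample. Because 4 of the 5 groups hold 1 sample, a gene's own spread comes from the germ-free preweaned pair alone (1 residual degree of freedom). limma draws it toward a spread shared over all genes (2.38 prior degrees of freedom). The SEs below therefore rest largely on that shared value. The labels do not say that the pair came from separate animals. limma called 0 genes in each of 7 comparisons, with the smallest Benjamini-Hochberg adjusted p of a comparison between 0.288 and 0.9999 and between 70 and 1241 genes at an unadjusted p under 0.05. Its trend and robust version also called 0. No chemokine difference below therefore passed the test, and each is given as a value. The pair itself differed 2-fold or more in 2342 genes (19.2%). Where 1 or both samples of the pair were at background, their gap is understated and does not give the spread of an expressed gene.

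Several samples stood apart in ways that touch these values. The 6 columns of germ-free preweaned 1 form 2 sets that no label tells apart. They lay 2-fold or more apart in 356 genes, and the Y-linked Ddx3y was at 9.63 in the first and 6.01 in the second, and the labels do not say if 1 mouse gave both. Ddx3y was also low in both postweaned samples, at 6.51 in germ-free and 5.91 in SPF ileum, against 9.17 in SPF preweaned, 9.52 in humanized and 9.84 in germ-free preweaned 2. Its level thus moved with weaning in SPF ileum, and the part of sex in the weaning differences and the interaction was not tested. In the column headings, array numbers start again in germ-free preweaned 2 and the humanized sample, so these form 1 array series and the other 4 samples another. Humanized against SPF preweaned ileum lies wholly across these series, so series and group cannot be told apart in it. In addition, 391 of 12196 genes lay 2-fold or more apart between 2 sides of 3 samples: germ-free postweaned ileum with the SPF pair, and humanized ileum with the germ-free preweaned pair. These sides were set by the levels of Ccl28, and no label gives them. No other division of the samples was counted, so the 391 has no other count to stand against. SPF preweaned against germ-free preweaned, germ-free weaning, humanized against SPF preweaned and the interaction of weaning with microbiota cross that division. Whether anything but the groups lies behind the division was not tested. If so, it and the group cannot be told apart in these comparisons. The humanized sample is labelled ileum, yet the ileal genes Fabp6, Slc10a2 and Fgf15 were all at background in it (6.76, 6.86 and 7.12), against levels of up to 14.22, 9.80 and 12.19 elsewhere, whereas 4 of 4 markers of the proximal small intestine were above background (mean 11.07). Those 4 were also above background in SPF postweaned ileum (10.96) and germ-free preweaned 2 (10.40). Slc10a2 was also at background in germ-free preweaned 1 and SPF preweaned. All 7 enterocyte markers were above background in every sample.

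Ccl3, Ccl4, Ccl20 and Cxcl10 were at background in 4 samples and above it in SPF postweaned and humanized ileum. Of the 10 genes, 1 was above background in germ-free preweaned 1 (Ccl25), 2 in germ-free preweaned 2 (Ccl5 and Ccl25), 3 in germ-free postweaned (Ccl5, Ccl25 and Cxcl9) and 2 in SPF preweaned ileum (Ccl25 and Cxcl9). In SPF postweaned ileum 8 were, all but Ccl2 and Cxcl13, and in the humanized sample 8 were, all but Ccl28 and Cxcl13. Those counts stand against 38.0% to 48.9% of all genes on the array above background in the other 5 samples and 56.5% in SPF postweaned ileum. The level needed for detection also differed between samples. The lowest level among detected probes was 6.68 to 6.88 on the SPF postweaned arrays and 7.91 to 8.01 on those of germ-free preweaned 2. Cxcl10 was thus above background at 7.36 in the former and at background at 7.20 in the latter. The humanized Ccl3 level, 7.62, would lie under the range of germ-free preweaned 2. The part of this in the counts was not tested. Of the 10 genes, 1 was above background in all 6 samples, 2 in 4 samples, 4 in 2 samples, 2 in 1 sample and Cxcl13 in none (0). The 9 that were tested include 6 that passed the filter through the samples where they were bright, so counts of differences over them describe the filter as well and support nothing.

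**Figure D1:**
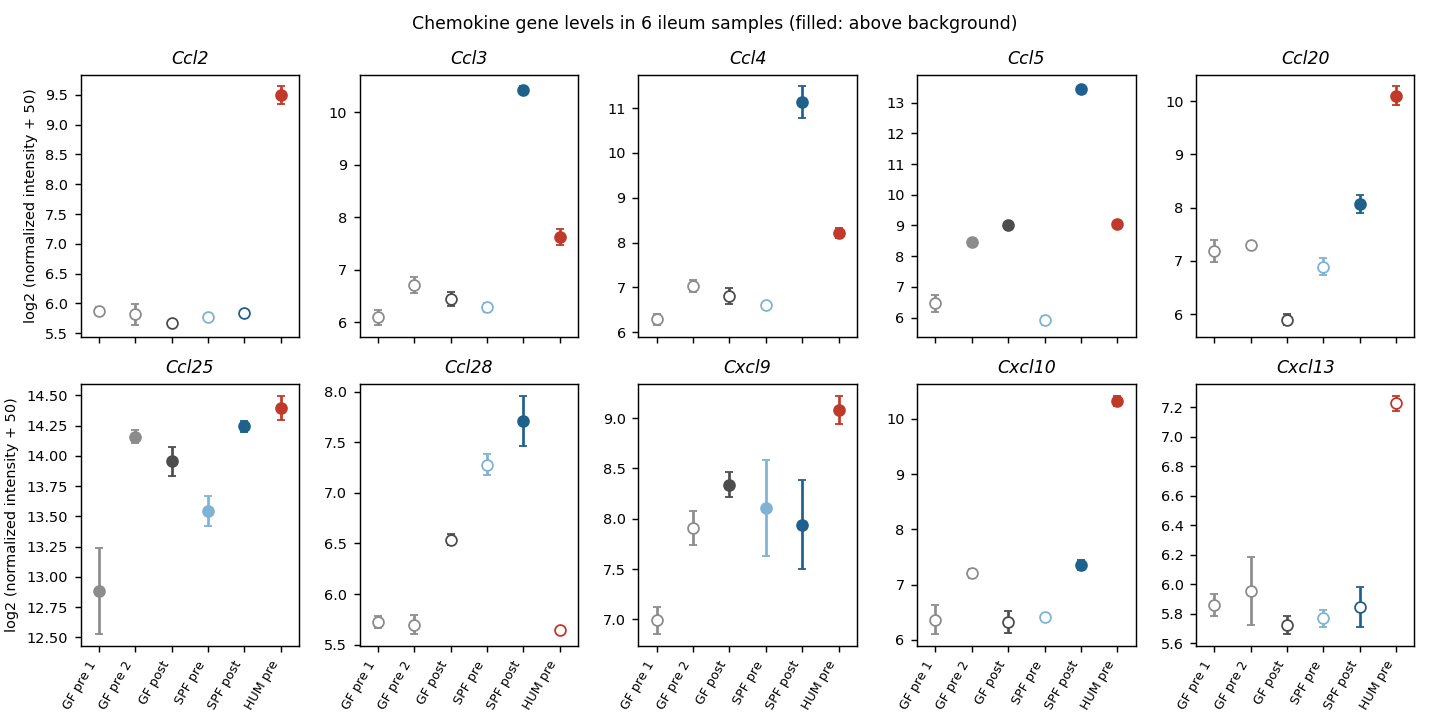
Level of each chemokine gene (log2 of normalized intensity plus 50) in each of the 6 samples, with GF for germ-free and HUM for humanized; points are sample means, bars the SD between arrays, and filled points lie above background. Ccl3, Ccl4 and Ccl5 peak in SPF postweaned ileum, whereas Ccl2, Ccl20, Cxcl9 and Cxcl10 peak in the humanized sample.

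Ccl5, a chemoattractant for effector T cells, had the widest range of the 10 genes. Its level was 6.47 and 8.46 in the germ-free preweaned pair, 9.02 in germ-free postweaned, 5.92 in SPF preweaned, 13.45 in SPF postweaned and 9.04 in the humanized ileum (SD between arrays 0.023 to 0.27). SPF postweaned ileum stood 4.42 above the next sample, no array overlapping, while germ-free postweaned and humanized ileum overlapped. In raw intensity the mean was 11723 in SPF postweaned against 333 in germ-free postweaned and 17.3 in SPF preweaned ileum. It was 21.6-fold higher in SPF than in germ-free postweaned ileum, a log2 difference of 4.43 ± 1.17 (SE, limma; 1 sample a group). Within SPF mice it was at least 66.4-fold higher after weaning than before, a bound because none of the preweaned arrays detected it. The germ-free preweaned pair differed by 1.99 in Ccl5, and both differences exceed that gap. Sample 1 of the pair was at background, however, so the gap is understated. In bulk tissue, more cells of a type and more RNA per cell cannot be told apart, here or below.

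Ccl3 and Ccl4, which code for the macrophage inflammatory proteins 1-alpha and 1-beta, ran together. Ccl3 was at 6.10 and 6.71 in the germ-free preweaned pair, 6.44 in germ-free postweaned, 6.28 in SPF preweaned, 10.43 in SPF postweaned and 7.62 in the humanized ileum (SD between arrays 0.065 to 0.15). Ccl4 was at 6.29 and 7.03, 6.81, 6.61, 11.13 and 8.21 in the same order (SD 0.049 to 0.35). For both genes SPF postweaned came first and humanized ileum second, each apart from the rest, and the other 4 samples were at background. Against germ-free postweaned ileum, Ccl3 was at least 7.45-fold and Ccl4 at least 12.1-fold higher in SPF postweaned, with differences of 3.99 ± 0.56 and 4.32 ± 0.61. Against SPF preweaned ileum the bounds were 8.16-fold and 13.3-fold. The pair gaps, 0.61 and 0.74, were smaller, but both samples of the pair were at background, where gaps are understated. Because probe sequences were not used here, reads of one transcript by the probe of the other were not tested.

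Across the whole SPF against germ-free postweaned comparison, 6 of the 9 tested chemokines were 2-fold or more higher and 0 lower, against 9.02% and 6.37% of all genes (15.4% in either direction). The median of the 9 was 1.18, beside -0.016 over all genes. With 75th percentile scaling that latter median was -0.157, and of the genes at 2-fold or more 41.4% were higher rather than 58.6%. Beside Ccl3, Ccl4 and Ccl5 the 6 were Ccl20, at least 1.46-fold higher, Ccl28, at least 1.14-fold, and Cxcl10, whose difference of 1.03 allowed no bound because its level lay too near that of the dimmest detected probes. Over SPF weaning 4 of 9 (Ccl3, Ccl4, Ccl5 and Ccl20) were 2-fold or more higher and 0 lower, against 10.5% and 8.64% of all genes (19.2% in either direction). Ccl20 was at least 1.60-fold higher after weaning. The adjusted p in limma was 0.9998 for every chemokine in the first comparison and at least 0.94 in the second.

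T cell markers were highest in SPF postweaned ileum as well. Of the 9 tested T cell markers 9 were above background there, with a mean level of 9.68, against 1 to 5 and means of 6.68 to 7.28 in the other samples. Of 4 tested NK and cytotoxic markers 4 were above background, with a mean of 12.63 against 6.45 to 8.92. Their part in the chemokine values was not tested. The genes most like Ccl5 over the 6 samples, by root mean square difference of centred log2 levels, were Gzmb at 0.41, Gzma at 0.56 and Car4 at 0.77, with Pearson's r of 0.99, 0.98 and 0.95. Gzmb and Gzma code for granzymes, the proteases of cytotoxic lymphocytes. The nearest to Ccl3 were Ccl4 at 0.17, Cd8a at 0.20 and Cd69 at 0.20, and to Ccl4 they were Cd69 at 0.17, Ccl3 at 0.17 and Cd8a at 0.35. Cd8a marks cytotoxic T cells and Cd69 activated lymphocytes. Pearson's r was 0.991 or more for these. All genes were read on the same arrays of each sample, and r over 6 samples is a description.

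**Figure D2:**
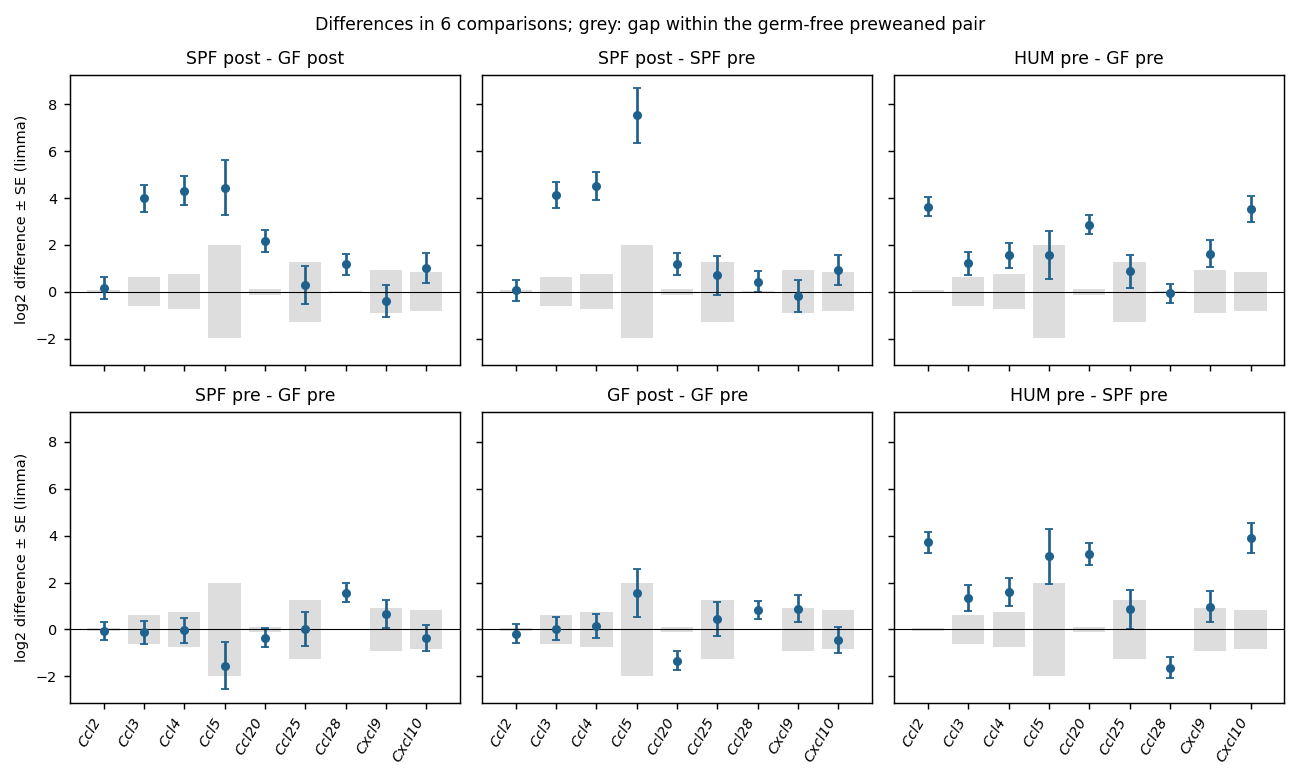
Log2 difference of the 9 tested chemokine genes in 6 comparisons, with bars for limma's SE; the grey band is the gap between the germ-free preweaned samples in either direction. Ccl3, Ccl4 and Ccl5 lie farthest above the band in both SPF postweaned comparisons, and Ccl2, Ccl20 and Cxcl10 in both humanized ones. Ccl2, Ccl20, Ccl28 and Cxcl10 also leave it in the former. In the latter Ccl3, Ccl4 and Cxcl9 also leave it, and Ccl28 does so downward. The band is understated for genes at background in both samples of the pair.

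Ccl2 was above background in the humanized sample alone. Its level was 5.88 and 5.82 in the germ-free preweaned pair, 5.67 in germ-free postweaned, 5.77 in SPF preweaned, 5.84 in SPF postweaned and 9.49 in the humanized ileum (SD between arrays 0.013 to 0.18). The 5 low samples were all at background, while all 3 humanized arrays detected it, at a mean raw intensity of 631 against 8.17 or less elsewhere. It was at least 3.62-fold higher than in germ-free and at least 4.25-fold higher than in SPF preweaned ileum, with a difference to the germ-free pair of 3.64 ± 0.40 (SE, limma) and a pair gap of 0.060.

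Cxcl10 and Ccl20 were also highest there. Cxcl10 was at 6.37 and 7.20 in the germ-free preweaned pair, 6.33 in germ-free postweaned, 6.41 in SPF preweaned, 7.36 in SPF postweaned and 10.32 in the humanized ileum (SD between arrays 0.033 to 0.26). Only SPF postweaned and humanized ileum were above background, 2.96 apart. Against the germ-free preweaned pair it was at least 6.45-fold higher in the humanized ileum (difference 3.54 ± 0.56, pair gap 0.84), and against SPF preweaned at least 7.57-fold. Ccl20 was at 7.18 and 7.29, 5.89, 6.88, 8.07 and 10.11 in the same order (SD 0.044 to 0.21). SPF postweaned ileum was above the preweaned samples and humanized ileum 2.03 above it, without overlap. Ccl20 was 2.87 ± 0.40 higher (SE, log2 scale; pair gap 0.12) in the humanized than in the germ-free preweaned ileum, both of whose samples were at background, with 3 of 9 arrays detecting it, all of them of the first column set of sample 1. Against SPF preweaned ileum it was at least 6.53-fold higher.

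Cxcl9 was brightest in the humanized sample with both probes, but its other levels depended on the probe. With probe mMC000896 it was at 6.99 and 7.91 in the germ-free preweaned pair, 8.34 in germ-free postweaned, 8.11 in SPF preweaned, 7.94 in SPF postweaned and 9.08 in the humanized ileum (SD between arrays 0.13 to 0.48). The middle 4 samples overlapped in turn. With probe PH_mM_0015468 the levels were 6.29 and 6.96, 5.98, 5.95, 6.65 and 8.32, and only the humanized sample was above background. Humanized ileum was 1.63 above germ-free preweaned ileum on the log2 scale with the first probe, where both germ-free samples were at background and 1 of 9 arrays detected it, and at least 1.61-fold with the second. SPF against germ-free postweaned ileum was -0.40 with the first and 0.66 with the second, the latter at background on both sides.

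Of the 9 tested chemokines, 7 were 2-fold or more higher and 0 lower in the humanized than in the germ-free preweaned ileum, against 4.16% and 2.34% of all genes (6.49% in either direction). The others of the 7 were Ccl4, at least 1.49-fold, Ccl3, with a difference of 1.22 and no bound, and Ccl5, 2.98-fold with 3 of 9 germ-free arrays detecting it. The Ccl5 difference, 1.57 ± 1.02, was smaller than its pair gap. Within the array series, against germ-free preweaned 2 alone, the differences were 3.67 for Ccl2, 3.12 for Cxcl10, 2.81 for Ccl20, 1.18 for Ccl4, 1.17 for Cxcl9, 0.92 for Ccl3 and 0.58 for Ccl5. Ccl3, at background in germ-free preweaned 2, and Ccl5, above it there, then lay under a difference of 1. The adjusted p in limma was 0.9999 for every chemokine. Against SPF preweaned ileum 6 of 9 were higher and 1, Ccl28, lower, against 15.3% and 14.6% of all genes (29.8% in either direction), with neither side above background for Ccl28, and Ccl5 at least 3.11-fold higher. All values against SPF preweaned ileum, those of Ccl2, Cxcl10 and Ccl20 included, cross the array series.

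**Figure D3:**
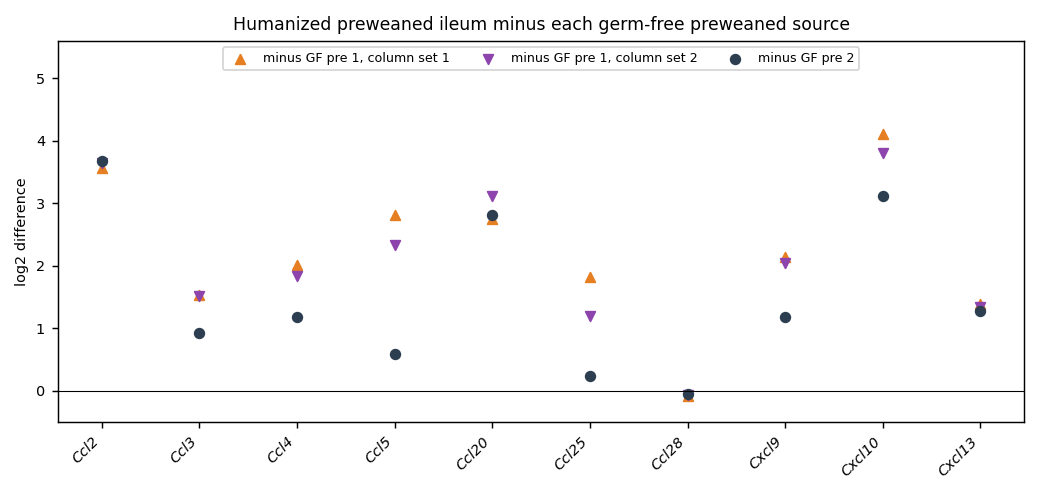
Log2 level in the humanized preweaned ileum minus that in each germ-free preweaned source: column sets 1 and 2 of sample 1, and sample 2. Ccl2, Ccl20 and Cxcl10 stand far above all 3 sources, while the Ccl5 and Ccl25 differences are smaller against sample 2 than against either set of sample 1.

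Markers of blood vessels, stroma and muscle stood highest in the humanized sample as well. Of 5 endothelial markers 5 were above background, with a mean level of 8.56 against 6.35 to 7.83 elsewhere. By the probe tested, 3 of 4 smooth muscle markers were above background, all but Acta2 (mean of the 4 9.36 against 6.37 to 7.90). All 3 tested fibroblast markers (9.91 against 6.23 to 9.15) and all 10 tested macrophage and dendritic cell markers (8.96 against 6.77 to 8.69) were above background. Of those 10, only 1 was 2-fold or more higher than in the germ-free preweaned ileum and 1 lower, against 4.16% and 2.34% of all genes. Csf1r was at 9.29, below 12.85 in germ-free preweaned 1 and 10.90 in SPF preweaned ileum. Cd68 was at 7.49, below 8.77 in germ-free preweaned 1. Of the neutrophil markers only S100a9 was tested, at 8.30 against 5.89 to 6.84. Their part in the chemokine levels was not tested, nor was that of the missing ileal genes. The genes most like Ccl2 were Icam1, an adhesion molecule of inflamed endothelium, at 0.31, Cxcl10 at 0.39 and S1pr1 at 0.63. Nearest to Cxcl10 were Gem at 0.36, Ccl2 at 0.39 and Rrm2 at 0.41, and to Ccl20 they were Gem at 0.38, Cxcl10 at 0.46 and Dmbt1 at 0.48. Nearest to Cxcl9 were Phldb1 at 0.17, Pdss1 at 0.24 and Hpdl at 0.25. Pearson's r for these 4 chemokines ran from 0.91 to 0.98 over 6 samples.

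The epithelial chemokines had other patterns. Ccl25 was bright in every sample: with probe mMC023427 it was at 12.88 and 14.16 in the germ-free preweaned pair, 13.95 in germ-free postweaned, 13.54 in SPF preweaned, 14.24 in SPF postweaned and 14.40 in the humanized ileum (SD between arrays 0.046 to 0.36). The top 3 samples overlapped in turn, and the pair gap of 1.27 exceeded every group difference. These ran from 0.020 for SPF against germ-free preweaned to 0.87 for humanized against germ-free preweaned ileum. With probe PH_mM_0012655 the levels were 8.79 and 9.15, 10.02, 9.23, 10.66 and 9.21, and the pair gap was 0.36. By that probe both postweaned samples lay above all preweaned ones, Ccl25 being 2.69-fold higher after weaning in SPF and 2.06-fold in germ-free ileum. The first probe gave 1.63-fold and 1.35-fold, inside its pair gap. Genes most like Ccl25 by its first probe were Cd302 at 0.084, Arhgef39 at 0.092 and Fam3c at 0.099, with r of 0.983 to 0.990.

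**Figure D4:**
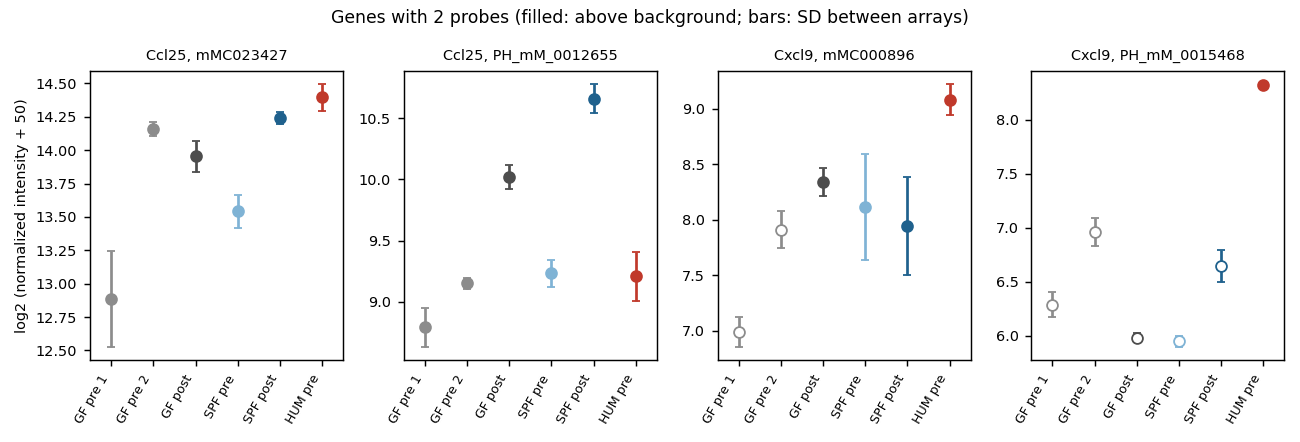
Levels of Ccl25 and Cxcl9 by each of their probes (log2 of normalized intensity plus 50) in the 6 samples, with bars for the SD between arrays and filled points above background. The second Ccl25 probe places both postweaned samples on top, and the second Cxcl9 probe is above background in the humanized sample alone.

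Ccl28 set the division of the samples given above. Its level was 5.72 and 5.70 in the germ-free preweaned pair, 6.54 in germ-free postweaned, 7.28 in SPF preweaned, 7.71 in SPF postweaned and 5.64 in the humanized ileum (SD between arrays 0 to 0.25). Only SPF postweaned ileum was above background, with 1 of 3 arrays detecting it in SPF preweaned. Germ-free postweaned and both SPF samples lay at least 0.81 above the other 3. Because these levels set the sides, that Ccl28 follows the division of 391 genes was fixed beforehand. Of the 9 tested chemokines no other one separated those sides. The difference between SPF and germ-free postweaned ileum, 1.18 ± 0.46, lies within one side. The genes most like Ccl28 were Vsnl1 at 0.061, Gsg1 at 0.075 and Ifnar2 at 0.092, with r of 0.996 to 0.998.

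Cxcl13, the B cell attractant, was above background in none (0) of the samples. Its level was 5.86 and 5.96 in the germ-free preweaned pair, 5.72 in germ-free postweaned, 5.77 in SPF preweaned, 5.85 in SPF postweaned and 7.23 in the humanized ileum (SD between arrays 0.052 to 0.23). The humanized arrays stood apart from all others, at a mean raw intensity of 85.3 against 8 or less, but only 1 of the 3 detected it.

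Between SPF and germ-free ileum before weaning, 1 of the 9 chemokines was 2-fold or more higher (Ccl28, neither side above background) and 1 lower (Ccl5, a difference of -1.55 inside its pair gap), against 11.5% and 11.1% of all genes (22.6% in either direction). Over germ-free weaning 1 was higher (Ccl5, 1.56, inside its pair gap) and 1 lower (Ccl20, -1.34, neither side above background), against 11.6% and 12.7% of all genes (24.3% in either direction). The interaction of weaning with microbiota was 2-fold or more above 0 for 5 genes (Ccl3, Ccl4, Ccl5, Ccl20 and Cxcl10) and below for 1 (Cxcl9), against 17.5% and 16.9% of all genes (34.4% in either direction). The Cxcl9 value, -1.06, became 0.14 with the mean of its tested probes. It was 5.98 ± 1.55 for Ccl5, 4.37 ± 0.80 for Ccl4 and 4.11 ± 0.75 for Ccl3, each with an adjusted p of 0.761 in limma.

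Of the 22 chemokine receptors listed, 11 were tested. In SPF against germ-free postweaned ileum 4 were 2-fold or more higher and 1 lower, against 9.02% and 6.37% of all genes, and the filter bears on these counts too. Cxcr6, a receptor of tissue-resident T cells, was at 9.998 in SPF postweaned and 7.37 in the humanized ileum, and at background, 7.16 or below, in the others. Cxcr3, the receptor for Cxcl9 and Cxcl10, was above background in SPF postweaned ileum alone (7.48, 3 of 3 arrays) and at 5.85 in the humanized ileum, where its ligands were brightest. Ccr10, the receptor for Ccl28, was above background in germ-free postweaned ileum alone (7.69, 2 of 3 arrays). In the humanized against the germ-free preweaned ileum 0 of the 11 were 2-fold higher or lower, against 4.16% and 2.34% of all genes. Further receptors were looked up after their values were seen: Ccr9 was above background in 4 samples (7.50 to 8.61), Ccr2 was at background in the humanized sample (6.38), Cxcr5 was above background in all 6 (9.70 to 10.50), and Ccr6 was not tested.

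**Figure D5:**
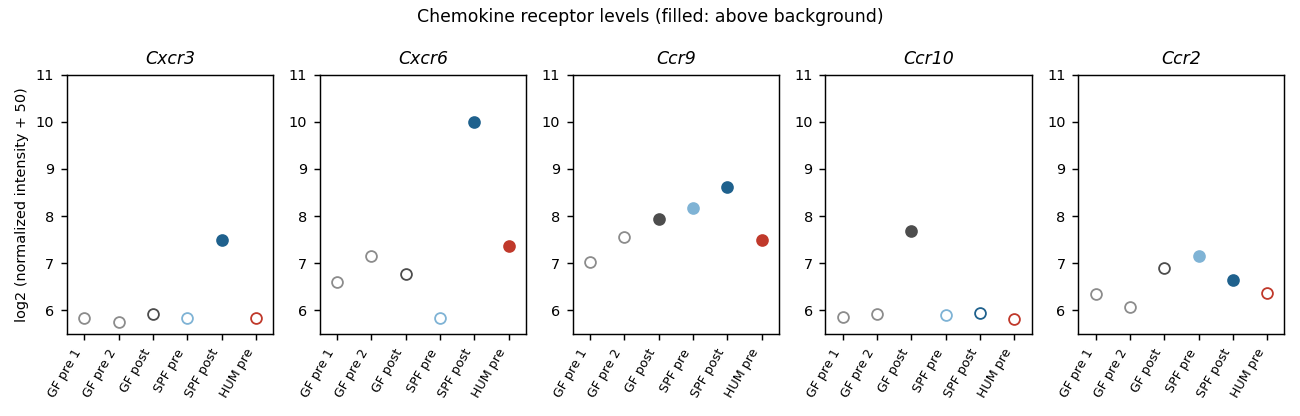
Levels of 5 chemokine receptor genes (log2 of normalized intensity plus 50) in the 6 samples, filled where above background. Cxcr3 and Cxcr6 are highest in SPF postweaned ileum, and Ccr10 is above background in germ-free postweaned ileum alone, on 2 of 3 arrays.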

How the data were processed

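Ileal RNA (2.5 µg, integrity number at least 8, per the labels) was measured in 1 colour (Cy5) on Phalanx Mouse OneArray slides. Per the file headers, the authors deposited a raw intensity and a detection p-value for each probe on each of 21 arrays. Some intensities lie below 0, so background had been subtracted; how, and how the detection p-value was made, the sources used here do not say. The authors' deposited series table holds, by comparison with the arrays, the mean intensity of each sample on a linear scale, uncentred.

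Of 26423 probes 22553 had 1 symbol, 237 several and 3633 none; symbols were updated with RefSeq names of GRCm38.p6 (19966 current, 2151 older, 436 kept), and 27 date-like symbols were restored. The plan foresaw a normexp correction for uncorrected files, which was not needed. Arrays were quantile-normalized, values below 0 set to 0, 50 added and log2 taken. Arrays were averaged within column sets, then sets within samples. Where several probes of a gene were tested, the brightest on average stood for it. The test was a fit of group means in limma 3.58.1, under R 4.3.3 (1 residual degree of freedom; 2-sided; Benjamini-Hochberg over 12196 genes; threshold 0.05). The fit was also run on simulated data in which all genes shared the same spread, unlike the genes measured here. A fold against a group with no detected array is a lower bound, taken against the higher, per array, of the probe's value and the lowest among detected probes. Tables used Python 3.11.15 and pandas 2.3.3.

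All 10 chemokines were named, with the 3 genes most alike and up to 4 genes per list and comparison of other ligands and receptors. Members and lists were chosen with earlier results of these data known. Of the receptors, 1 is not reported here. The number of arrays limits precision.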

Additional observations from a re-analysis of the deposited data

Results flagged for a closer look

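Ccl5 lay on opposite sides of 0 when SPF was set against germ-free ileum after and before weaning. It was 4.43 higher in SPF after weaning (log2; 1 sample a group) and -1.55 before, where the germ-free pair itself differed by 1.99. The test of this difference, the interaction in limma, gave 5.98 with an adjusted p of 0.761. Ccl20 was 1.19 higher after than before weaning in SPF ileum and -1.34 in germ-free ileum, an interaction of 2.53 with an adjusted p of 0.761 in limma, and only the SPF postweaned sample was above background. Both interactions cross the division of the samples that was set by the levels of Ccl28.

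The second Cxcl9 probe, which stood outside the fit, was detected on 1 of 3 SPF postweaned arrays and on 3 of 3 humanized arrays, and on 0 germ-free arrays. Cxcl13, which was not tested, was detected on 1 of 3 humanized arrays at a mean raw intensity of 85.3.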

How the results depend on the processing

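Recomputing each value under the alternatives left 545 values labelled the same, moved 10 and reversed 10. The moved values were all counts of genes. A chemokine difference that kept its sign was labelled the same even where its size changed. With the mean of its tested probes, Cxcl9 over germ-free weaning went from 0.89 to 0.12 and was so labelled. The 545 also include limma's counts of 0, so they do not show that sizes were stable. limma called 0 genes under every alternative that allows a test, its trend and robust version included. With genes above background in all 6 samples alone, the genes at 2-fold or more numbered 827 (SPF against germ-free postweaned), 1329 (SPF weaning), 344 (humanized against germ-free preweaned), 1226 (SPF against germ-free preweaned), 1416 (germ-free weaning), 1606 (humanized against SPF preweaned) and 2036 (interaction), instead of 1877, 2339, 792, 2761, 2966, 3637 and 4199; fewer genes enter that count. Without a germ-free preweaned sample, the humanized comparison ranged from 232 genes without sample 1 to 2235 without sample 2. Chemokines above background in SPF preweaned ileum were 1 when all arrays had to detect them.

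The reversals concern Ccl25 and Cxcl9. With 75th percentile scaling Ccl25 was -0.27 in SPF against germ-free postweaned and -0.47 in SPF against germ-free preweaned ileum. The latter was -0.14 with the second column set and ranged from -0.62 to 0.66 without a germ-free sample; germ-free weaning ranged from -0.20 to 1.07 and the interaction from -0.37 to 0.91. With the mean of its tested probes Cxcl9 was 0.13 in SPF against germ-free postweaned ileum, 0.26 over SPF weaning, -0.0072 in SPF against germ-free preweaned ileum and 0.14 in the interaction, instead of -1.06. The cause was not tested. No paired analysis was possible because 4 of the 5 groups hold 1 sample. The array series as a block left no residual degrees of freedom and was not run. Dim genes are limited by signal over background.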

Other observations

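Other chemokine ligands that were 2-fold or more apart between SPF and germ-free postweaned ileum were 3 of 12 tested, all higher in SPF, against 9.02% of all genes higher and 6.37% lower: Cxcl14 by 2.84, Ccl1 by 1.33 and Cxcl2, a neutrophil attractant, by 1.22 on the log2 scale. Over SPF weaning 4 were higher and 3 lower, against 10.5% and 8.64% of all genes, led by Xcl1, made by cytotoxic lymphocytes, at 3.59. Cxcl5, another neutrophil attractant, was -1.95. In the humanized against the germ-free preweaned ileum 4 were higher and 0 lower, against 4.16% and 2.34% of all genes: Xcl1 by 2.21, Ccl11, an eosinophil attractant, by 1.89, Cxcl2 by 1.31 and Cxcl5 by 1.28. Xcl1 was at 10.09 in SPF postweaned, 9.75 in humanized and 9.25 in germ-free postweaned ileum.

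Among 12 tested genes of interferon gamma and NF-kappaB signalling, 6 were 2-fold or more higher and 0 lower in the humanized than in the germ-free preweaned ileum, against 4.16% and 2.34% of all genes. The adhesion molecules Icam1 and Vcam1 were higher by 3.57 and 3.49, and the interferon-induced Gbp2 by 2.42. Irf1, Igtp, Irgm1 and Socs1 were not among the 6. In the humanized ileum they were at 9.53, 9.78, 8.29 and 7.77. In the germ-free preweaned pair Irf1 was at 9.32 and 9.75, Igtp at 10.32 and 9.995, Irgm1 at 8.10 and 8.21, and Socs1 at 7.62 and 7.83. Ifng itself was above background in all 6 samples, at 8.37 in the humanized and at 9.48, its highest, in germ-free postweaned ileum. Over SPF weaning 6 of the 12 were higher and 0 lower, against 10.5% and 8.64% of all genes. Among the 6 were Tnfaip3 by 2.28, Relb by 1.72 and Nfkbia by 1.69, which are targets of NF-kappaB. Over germ-free weaning 2 of the 12 were higher and 2 lower, against 11.6% and 12.7% of all genes. The 2 higher were again Relb, by 1.498, and Nfkbia, by 1.12. In the germ-free preweaned pair Relb was at 10.06 and 11.51, and Nfkbia at 11.31 and 13.03. The part of the microbiota in these NF-kappaB targets was not tested. None (0) of these differences passed limma's test, and genes that passed the filter only where they were bright had to differ.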
